A study of Mus musculus with 21 samples.

Results

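Common lymphoid progenitors (CLP) from mice with an Etv6 mutation on both alleles were compared with CLP of wild-type mice. The comparison used 7 of the 21 libraries of the series, 4 mutant and 3 wild type, taken by the population and genotype that their labels give. It covered the 10724 of 11628 deposited genes that reached 1 RPKM in at least 3 of these 7 libraries. RPKM, the deposited unit, is a read count divided by the length of the transcript and by the library's mapped reads.

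CLP are bone marrow progenitors that give rise to B cells, T cells, natural killer cells and some dendritic cells, and they depend on signals through the interleukin-7 receptor and the cytokine receptor Flt3. Etv6 is a transcription factor of the ETS family, which recognises DNA with a GGAA core. It acts mainly as a repressor by recruiting corepressor complexes, and in people inherited variants of the gene are known for low platelet numbers and a raised risk of leukaemia.

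The homozygous mutant mice carried the change that the series' description writes as h.P214L, and their genotype label reads ETV6 mt/mt. The labels name no Cre or promoter that would limit the mutation to blood cells, and no strain. Mutant CLP replicate 1 came from a 12-week-old female, replicate 2 from a 12-week-old male, and replicates 3 and 4 from 10-week-old females. Wild-type CLP replicate 1 came from a 12-week-old female, replicate 2 from a 12-week-old male and replicate 3 from a 10-week-old female. The description counts 4 mutant and 3 wild-type mice. All 7 libraries were made from bone marrow cells sorted as lineage-negative, positive for IL7 and Flk2, and low for cKit and Sca1. The gate label reads IL7+, and whether it means the interleukin-7 receptor is not stated. The other 14 libraries, with the same numbers per genotype, came from multipotent progenitors (MPP4; lineage-negative, positive for cKit, Sca1 and FLK2) and haematopoietic stem cells (HSC; lineage-negative, positive for cKit, Sca1 and CD150, negative for FLK2 and CD38). They were used for the spread between libraries and for the differences between populations. Their ages and sexes by replicate number are those of CLP, except that mutant replicate 4 is labelled 12 weeks old in MPP4 and HSC and 10 weeks old in CLP.

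Depth is unknown, because RPKM carries no counts, so no counting interval is given. Across the 7 CLP libraries RPKM summed to 347476 to 376135, the median gene stood at 11.95 to 12.33 RPKM, and 7 to 90 genes were listed at 0. From 3.24% to 4.30% of that sum fell to the 10 highest genes. Over genes, log2 values correlated at 0.963 to 0.981 between mutant libraries, 0.975 to 0.984 between wild-type libraries and 0.963 to 0.984 between genotypes, so libraries of different genotype were no less alike than libraries of 1 genotype. The residual SD on the log2(RPKM + 1) scale was 0.273 in CLP, against 0.219 in MPP4 and 0.249 in HSC.

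Transcripts of the gate's surface proteins, with Il7r taken for the IL7 marker, were present in every library of both genotypes. Il7r, the interleukin-7 receptor, stood at 92.9, 81.1, 103.5 and 81.5 RPKM in mutant CLP, against 87.2, 92.0 and 94.6 RPKM in wild-type CLP. Flt3, which encodes Flk2, averaged 381 ± 20.6 RPKM in mutant (SD, n = 4) and 365 ± 23.8 RPKM in wild-type CLP (SD, n = 3). Kit averaged 39.3 ± 5.98 and Ly6a, which encodes Sca1, 23.4 ± 5.37 RPKM in mutant CLP, against 39.9 ± 7.96 and 26.4 ± 9.73 RPKM in wild-type CLP. Dntt, the polymerase that adds bases at V(D)J junctions, averaged 1656 ± 199 RPKM in mutant and 1657 ± 59.0 RPKM in wild-type CLP. The list of gate genes also held surface markers outside the CLP gate, namely Cd34, Cd27, Cd93, Cd48, Ly6d and Cd38. Of its 10 members tested, 0 passed the test between genotypes and the median log2 difference was -0.02.

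The transcript of the mutated gene, Etv6 (chromosome 6, 134035700 to 134270158 in GRCm38, the build also called mm10), was present in every library. It stood at 72.2, 65.3, 62.1 and 62.6 RPKM in mutant CLP, against 66.3, 79.6 and 65.1 RPKM in wild-type CLP, so the groups overlapped. The log2 difference, mutant minus wild type, was -0.10, and it was not larger than the spread between libraries (p = 0.457 by exact permutation of the genotypes, two-sided, with 35 arrangements and a smallest possible p of 0.0286). A point mutation can leave the transcript level unchanged, so this level does not test the genotype labels.

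Between mutant and wild-type CLP, 0 of 10724 genes (0%) passed limma's test at a Benjamini-Hochberg adjusted p of 0.05, and the smallest adjusted p was 0.288. At an unadjusted p of 0.05 there were 498 genes (4.64%), fewer than the 536 that the threshold alone gives on average over this many genes. They were split almost evenly, 248 higher (2.31%) and 250 lower (2.33%) in mutant CLP. The 7 libraries fitted alone also gave 0 calls, with 366 genes at an unadjusted p of 0.05. Differences were small for most genes. The median absolute log2 difference was 0.0898 in CLP, against 0.0977 in MPP4 and 0.0872 in HSC, and the median standard error in CLP was 0.131. For 10398 genes, 97.0% of those tested, the 95% interval of the difference lay within 1 log2 unit of 0, and only 16 genes had an absolute log2 difference of at least 1. The count of 0 depended on 1 library. Without mutant replicate 2, 7 genes passed (adjusted p 0.0243 to 0.0489), and they are described below with their values.

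The 20 genes described next are the 10 with the smallest unadjusted p in each direction. None of the 20 passed the adjusted test, and they are given as values. In 18 of the 20 the libraries of the 2 genotypes did not overlap, as they did not for 459 (4.28%) of all genes tested. Since these genes were taken for their small p, that count describes them only.

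Among genes with higher values in mutant CLP, Mfge8 had the smallest p. It encodes lactadherin, a secreted protein that binds phosphatidylserine on dying cells and so marks them for uptake. Mfge8 (chromosome 7, 79133768 to 79149060) stood at 36.7, 31.5, 35.2 and 36.7 RPKM in mutant CLP, against 26.6, 25.5 and 27.3 RPKM in wild-type CLP. Every mutant library lay above every wild-type library, and the spread within each genotype was narrow. The log2 difference was 0.39 (95% interval 0.24 to 0.54; unadjusted p = 3.21e-05, limma adjusted p = 0.288). Il18r1 (chromosome 1, 40465552 to 40500854), a subunit of the interleukin-18 receptor, stood at 7.09, 7.09, 8.76 and 8.40 RPKM in mutant CLP, against 4.49, 2.18 and 5.02 RPKM in wild-type CLP. The groups were again separate, with wild-type replicate 2 the lowest, and the log2 difference was 0.90 (95% interval 0.51 to 1.29; limma adjusted p = 0.288).

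The promoter window of Mfge8 is shown because Etv6 belongs to a family that recognises GGAA and this gene had the smallest p. It runs from 250 bases before the gene's start to 50 after it, chr7:79149011-79149310 on the minus strand of GRCm38.p6, from RefSeq. Capitals mark GGAA and its reverse complement TTCC.
Mfge8: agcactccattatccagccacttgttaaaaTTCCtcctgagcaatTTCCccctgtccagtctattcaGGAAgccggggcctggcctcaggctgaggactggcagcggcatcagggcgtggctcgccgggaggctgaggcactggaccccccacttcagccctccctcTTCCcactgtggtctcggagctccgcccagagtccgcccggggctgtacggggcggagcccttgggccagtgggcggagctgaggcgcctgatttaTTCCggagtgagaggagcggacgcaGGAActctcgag
The window holds 2 GGAA and 4 TTCC. So short a motif is common, and 96.0% of 32851 such windows in RefSeq hold GGAA on either strand. The longer CCGGAAGT, searched on both strands, was found in 3.89% of all windows and in 8.84% of the 11053 windows of the genes tested. It was found in 0 of 22 windows of the 20 genes above (15 of them matched a window). A match or its absence describes letters in the window and says nothing of binding.

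The other genes with higher values follow. Hs3st1, an enzyme that sulfates heparan sulfate chains, had the largest difference of the 10. It stood at 10.8, 11.1, 17.2 and 11.6 RPKM in mutant CLP, against 3.75, 4.88 and 7.79 RPKM in wild-type CLP (log2 difference 1.10, SE 0.28, limma adjusted p = 0.699). App, the amyloid precursor protein, stood at 1.47, 1.36, 1.57 and 4.02 RPKM in mutant CLP, against 0.688, 0.539 and 0.839 RPKM in wild-type CLP. In both genes 1 mutant library lay far above the others, and all mutant libraries lay above the wild-type range. Anxa3, an annexin that binds membranes in the presence of calcium, stood at 4.20, 6.01, 5.23 and 7.77 RPKM in mutant CLP, against 3.02, 1.83 and 3.99 RPKM in wild-type CLP. Gsn, which encodes the actin-severing protein gelsolin, had overlapping groups, with mutant replicate 2 at 34.6 RPKM and wild-type replicate 3 at 36.2 RPKM. Uap1l1, Pcyox1 and Cdc42ep4 had log2 differences of 0.40, 0.29 and 0.46. Ugt1a7c, at 0.42, belongs to a cluster of transcripts that share exons, so its own level is uncertain.

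Among genes with lower values in mutant CLP, Slc25a30, a mitochondrial carrier (chromosome 14, 75757534 to 75787037), had the smallest p. It stood at 1.46, 2.18, 1.70 and 2.58 RPKM in mutant CLP, against 3.67, 4.48 and 3.52 RPKM in wild-type CLP (log2 difference -0.72, SE 0.15, limma adjusted p = 0.288). Pik3r6 (chromosome 11, 68503019 to 68552698), a regulatory subunit of the phosphoinositide 3-kinase gamma, stood at 2.25, 5.23, 3.10 and 2.07 RPKM in mutant CLP, against 6.60, 9.37 and 6.38 RPKM in wild-type CLP. Its log2 difference was -1.06 (95% interval -1.51 to -0.61), and in each genotype replicate 2 was the highest library. Blk (chromosome 14, 63372837 to 63417187), a Src-family kinase of B cells, stood at 32.8, 37.9, 36.2 and 26.4 RPKM in mutant CLP, against 95.8, 41.0 and 74.4 RPKM in wild-type CLP. The mutant libraries were close to one another, while the wild-type libraries spread widely, and the gap to wild-type replicate 2 was small.

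Gimap7, a GTPase of a family expressed in lymphocytes, stood at 26.4, 56.4, 34.6 and 36.6 RPKM in mutant CLP, against 79.7, 64.0 and 81.9 RPKM in wild-type CLP (log2 difference -0.99). Lax1, an adaptor protein of the lymphocyte membrane, stood at 44.7, 77.1, 50.4 and 37.4 RPKM in mutant CLP, against 81.1, 71.8 and 86.5 RPKM in wild-type CLP, and its groups overlapped through mutant replicate 2. H2-Eb2, a beta chain of MHC class II, averaged 1.45 ± 0.463 RPKM in mutant (SD, n = 4) and 3.16 ± 0.603 RPKM in wild-type CLP (SD, n = 3). Myo7a, an unconventional myosin, stood at 4.68, 4.43, 5.81 and 4.96 RPKM in mutant CLP, against 9.30, 6.68 and 8.12 RPKM in wild-type CLP. It is the only one of these 20 genes that passed the test in another population, falling by 0.93 in mutant MPP4 (limma adjusted p = 0.0159) beside its log2 difference of -0.59 in CLP. In HSC its log2 difference was -0.84 (limma adjusted p = 0.0801). The unnamed transcripts 9330175E14Rik, A230050P20Rik and 2010300C02Rik had log2 differences of -0.73, -0.39 and -0.57.

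**Figure D1:**
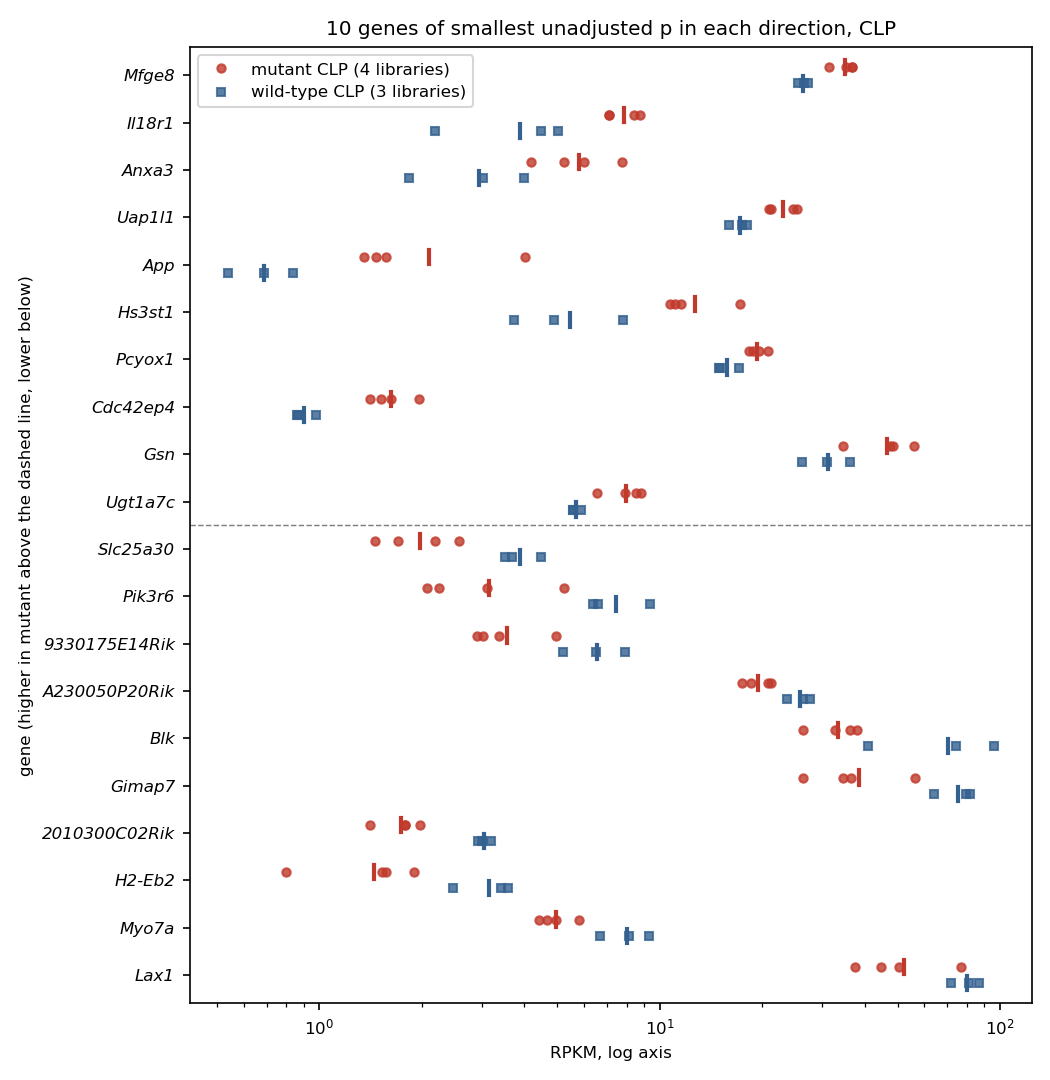
RPKM on a log axis of the 10 genes with the smallest unadjusted p in each direction, with mutant CLP libraries (circles, n = 4) drawn above wild-type CLP libraries (squares, n = 3) and short bars at the means. The groups are separate in 18 of the 20 genes; Gsn and Lax1 overlap, and 0 of the 20 passed the adjusted test.

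Of the 7 genes that passed without mutant replicate 2, Mfge8, Pik3r6 and Lax1 are given above. The others are Mzb1, Gimap4, Pde2a and Sulf2. Mzb1, a chaperone of B-lineage cells that helps assemble IgM, stood at 14.2, 43.2, 14.5 and 7.26 RPKM in mutant CLP, against 31.0, 40.6 and 45.2 RPKM in wild-type CLP. Gimap4 stood at 1.90, 11.6, 2.31 and 1.23 RPKM in mutant CLP, against 5.32, 15.6 and 10.5 RPKM in wild-type CLP. Pde2a, a cyclic nucleotide phosphodiesterase, stood at 11.1, 39.9, 12.3 and 8.21 RPKM in mutant CLP, against 22.98, 38.9 and 24.4 RPKM in wild-type CLP. Sulf2, which removes sulfate from heparan sulfate, stood at 1.01, 5.11, 0.876 and 1.58 RPKM in mutant CLP, against 3.42, 5.17 and 3.35 RPKM in wild-type CLP. In all 4 genes mutant replicate 2 lay inside or near the wild-type range and the remaining mutant libraries lay below it. Mutant replicate 2 was the only mutant CLP library from a male mouse. Without it, log2 differences were -1.66 for Mzb1, -1.94 for Gimap4, -1.35 for Pde2a and -1.20 for Sulf2, against -1.21, -1.39, -0.88 and -0.82 with all 7 libraries. Without both libraries of male mice, 0 genes passed, with 422 at an unadjusted p of 0.05 and a smallest adjusted p of 0.0792.

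B-lineage genes had lower values in mutant CLP without passing the test. Of 40 genes listed, 31 were in the table and 29 were tested. Their log2 difference was negative in 27 and positive in 2, with a median of -0.34, while over all genes tested 48% were negative and the median was 0.007. Of the 29, 0 passed the adjusted test, 6 were lower at an unadjusted p of 0.05 and 4 had groups that did not overlap, against 2.33% and 2.28% of all genes. The 6 include Blk, above, and Tnfrsf13c, the receptor for the B-cell survival factor BAFF, at 7.86, 7.59, 5.90 and 7.75 RPKM in mutant CLP, against 13.3, 12.9 and 10.1 RPKM in wild-type CLP. They also include Rag1, the recombinase subunit that cuts antigen receptor genes, at 10.6, 24.04, 10.7 and 6.88 RPKM in mutant CLP, against 22.2, 23.2 and 18.9 RPKM in wild-type CLP. Ebf1, a transcription factor that specifies B cells, stood at 3.85, 10.5, 4.31 and 2.15 RPKM in mutant CLP, against 7.05, 13.5 and 6.14 RPKM in wild-type CLP. In both genes mutant replicate 2 reached wild-type levels and the remaining mutant libraries lay below the wild-type range. Cd74 and Pkib, the 2 members with positive differences, each had 0.24. The same list had a median log2 difference of -0.01 in MPP4 and 0.03 in HSC. Those medians do not hold for each member, so lower values were not particular to CLP for all of them. In MPP4 the log2 difference was -1.18 for Blk (limma adjusted p = 0.0553), -0.63 for Rag1 and -0.36 for Tnfrsf13c. It was -0.09 for Pkib and 0.41 for Cd74 there. In bulk libraries, fewer cells of a type and less RNA per cell cannot be told apart.

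Levels of B-lineage transcripts also varied between mice of 1 genotype. Cd79a, a chain of the B-cell receptor complex, stood at 26.8, 92.3, 32.3 and 15.96 RPKM in mutant CLP, against 52.3, 115.2 and 38.3 RPKM in wild-type CLP. Igll1, a surrogate light chain, stood at 10.2, 43.2, 9.93 and 1.94 RPKM in mutant CLP, against 16.4, 25.2 and 9.11 RPKM in wild-type CLP. Both genes were highest in replicate 2 of each genotype, the libraries of male mice. Over the 31 list members in the table, the mean log2 level was 3.53, 4.08, 3.56 and 3.32 in mutant CLP, against 3.90, 4.22 and 3.85 in wild-type CLP. The list's median log2 difference was -0.48 without both libraries of male mice, -0.33 with sex as a covariate and -0.22 without mutant replicate 4.

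**Figure D2:**
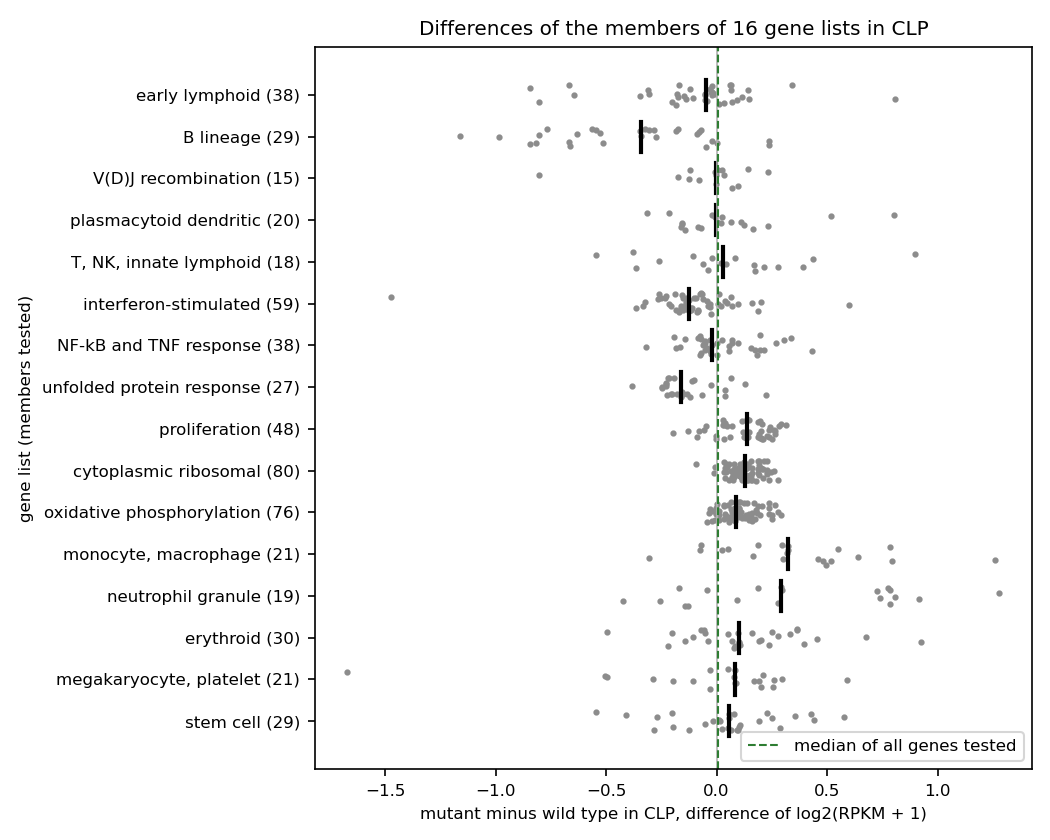
Differences of log2(RPKM + 1), mutant minus wild type in CLP, of the tested members of 16 gene lists, 1 grey point a gene and a black bar at the list's median, with a dashed line at the median of all genes tested (0.007). B-lineage points lie mostly left of the line (median -0.34), while proliferation and cytoplasmic ribosomal points lie mostly right of it (medians 0.14 and 0.13).

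Other lymphoid lists had medians near that of all genes. Early lymphoid genes had 12 positive and 26 negative differences of 38 tested, with a median of -0.05. Of the 38, 3 were lower and 1 higher at an unadjusted p of 0.05, against 2.33% and 2.31% of all genes. In 3 the groups were lower without overlap, against 2.28%. This list shares members with the B-lineage list, among them Rag1, Cd79a and Blnk, so the lists are not separate. Genes of V(D)J recombination had 7 positive and 8 negative of 15, with a median of -0.003. Plasmacytoid dendritic genes had 10 positive and 10 negative of 20, with a median of -0.003, and T, NK and innate lymphoid genes had 10 and 8 of 18, with a median of 0.03. Siglech, a lectin on the surface of plasmacytoid dendritic cells, stood at 87.4, 58.3, 77.8 and 47.9 RPKM in mutant CLP, against 52.4, 82.1 and 129 RPKM in wild-type CLP, a wide spread within each genotype. Zap70, a kinase of T-cell receptor signalling, stood at 3.33, 2.71, 3.04 and 3.56 RPKM in mutant CLP, against 1.66, 3.09 and 1.65 RPKM in wild-type CLP. None of these members passed the adjusted test. The ETS family, of which 19 members were tested, had a median of 0.009. Its member Etv1 stood at 3.46, 4.09, 8.40 and 4.75 RPKM in mutant CLP, against 1.66, 2.47 and 3.43 RPKM in wild-type CLP (log2 difference 0.78, limma adjusted p = 0.804). Of 16 corepressor genes, 6 were positive and 10 negative, and Sap30, a subunit of the Sin3 complex, stood at 34.9, 43.9, 41.0 and 41.2 RPKM in mutant CLP, against 31.2, 31.5 and 31.6 RPKM in wild-type CLP (log2 difference 0.34, limma adjusted p = 0.875).

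Inflammatory and stress genes gave no calls either. Of 59 interferon-stimulated genes, 12 had positive and 47 negative differences, with a median of -0.13, and 0 were called. Tap1, a peptide transporter of antigen presentation, stood at 61.8, 55.0, 62.8 and 57.6 RPKM in mutant CLP, against 85.7, 68.5 and 69.8 RPKM in wild-type CLP. Gbp4, an interferon-induced GTPase, stood at 14.5, 5.64, 13.5 and 10.8 RPKM in mutant CLP, against 59.3, 10.3 and 47.2 RPKM in wild-type CLP, so that 2 wild-type libraries set its difference. Genes of the NF-kB and TNF response were positive in 18 and negative in 20 (median -0.02), immediate early and heat shock genes in 9 and 13, and p53 targets in 10 and 8. Of 41 cytokine and pattern recognition receptors, 19 were positive and 22 negative. At an unadjusted p of 0.05, 2 were higher (Il18r1, above, and Nod1) and 2 lower (Nlrp3 and Ticam1), against 2.31% and 2.33% of all genes. Groups did not overlap in 4 higher and 2 lower members, against 2% and 2.28% of all genes. Among them Nlrp3, the sensor of an inflammasome, stood at 1.28, 1.18, 2.21 and 1.65 RPKM in mutant CLP, against 3.62, 3.30 and 5.91 RPKM in wild-type CLP (log2 difference -1.02, limma adjusted p = 0.875). Of 27 genes of the unfolded protein response, 22 were negative and 5 positive, with a median of -0.16. Of the 27, 0 passed, 3 were lower at an unadjusted p of 0.05 and 5 had lower groups that did not overlap. The shares over all genes were 2.33% and 2.28%. Derl1, which helps export misfolded proteins from the endoplasmic reticulum, stood at 44.1, 44.1, 43.7 and 44.8 RPKM in mutant CLP, against 46.7, 51.9 and 49.3 RPKM in wild-type CLP.

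Proliferation, ribosomal and respiratory genes had small differences, mostly positive. Of 48 proliferation genes, 40 were positive (median 0.14), of 80 cytoplasmic ribosomal genes 77 (median 0.13), and of 76 oxidative phosphorylation genes 66 (median 0.09). None passed the adjusted test, and 0 members of the 3 lists reached an unadjusted p of 0.05. The mean log2 level of the proliferation list was 5.99, 5.90, 5.89 and 5.85 in mutant CLP, against 5.98, 5.67 and 5.69 in wild-type CLP, so that wild-type replicate 1 lay among the mutant libraries. Summed RPKM of the ribosomal list was 27250, 31040, 38090 and 30950 in mutant CLP, against 30550, 24640 and 31800 in wild-type CLP, and the list's median difference was 0.02 when wild-type replicate 2 was left out. Without that library the median of the oxidative phosphorylation list was -0.005.

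Neutrophil and erythroid transcripts varied widely between libraries of 1 genotype. S100a8, a calcium-binding protein of neutrophils, stood at 1.88, 559, 34.5 and 774 RPKM in mutant CLP, against 142, 102 and 4.49 RPKM in wild-type CLP. Ngp, a neutrophil granule protein, stood at 0.353, 285, 32.8 and 326 RPKM in mutant CLP, against 75.8, 22.9 and 27.7 RPKM in wild-type CLP. Mutant replicates 2 and 4 were high and mutant replicate 1 was the lowest library for both. Hbb-bs, a beta-globin, stood at 24.2, 1537, 1100 and 2767 RPKM in mutant CLP, against 517, 568 and 850 RPKM in wild-type CLP. Reads shared with near-identical globin genes make its level uncertain.

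**Figure D3:**
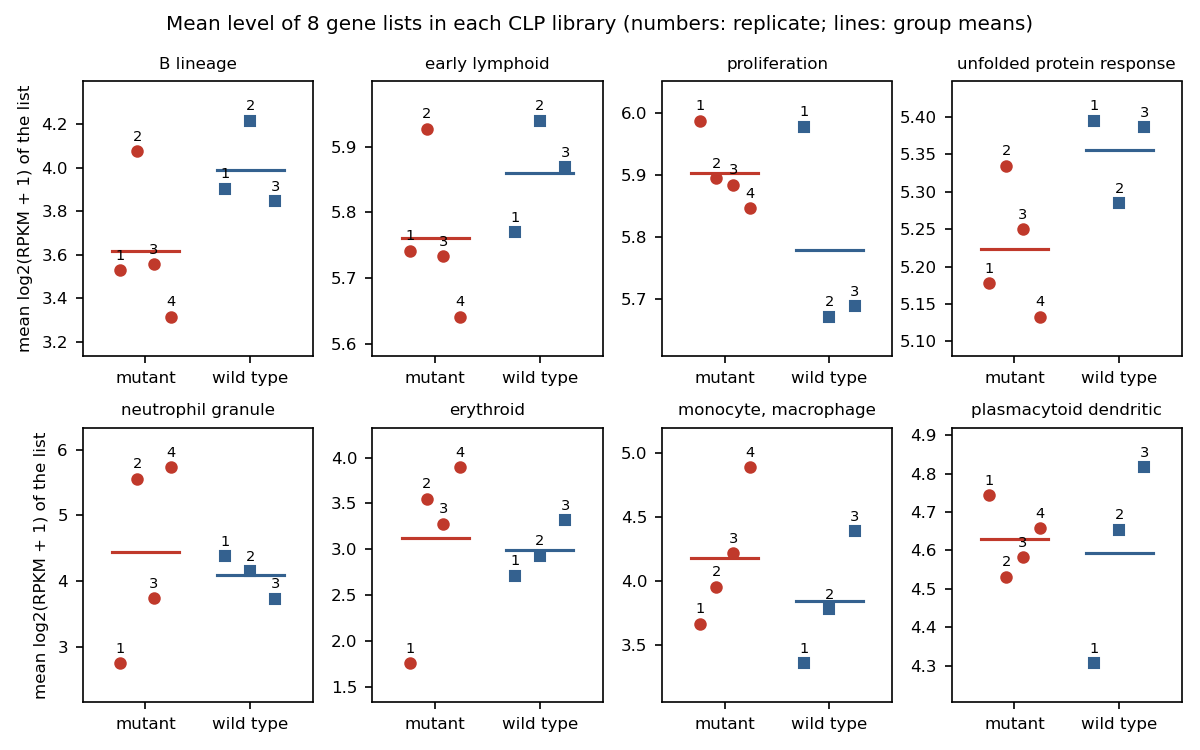
Mean log2(RPKM + 1) of the members of 8 gene lists in each CLP library, mutant (circles, n = 4) left of wild type (squares, n = 3), with replicate numbers and lines at the group means; each panel has its own axis. B-lineage levels are highest in replicate 2 of both genotypes, and neutrophil levels run from 2.75 to 5.73 within the mutant group.

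Over whole lists, the summed level of the 19 neutrophil genes was 513 to 2922 RPKM in mutant CLP and 658 to 933 RPKM in wild-type CLP. Summed over the 33 erythroid genes in the table, levels were 264 to 6447 RPKM in mutant CLP and 1392 to 2142 RPKM in wild-type CLP. The monocyte and macrophage list ranged from 916 to 1501 RPKM in mutant CLP and from 732 to 1197 RPKM in wild-type CLP. Its differences were positive in 18 and negative in 3 of 21 members, with a median of 0.32, 0.06 without wild-type replicate 1 and 0.63 without wild-type replicate 3. Of the 21, 0 passed the adjusted test and 2, Lyz2 (log2 difference 0.78) and C1qa (1.26), were higher at an unadjusted p of 0.05, against 2.31% of all genes. Of the neutrophil genes 13 were positive and 6 negative (median 0.29, 0.54 without mutant replicate 1 and -0.11 without mutant replicate 4), and of 30 erythroid genes 21 were positive and 9 negative (median 0.10, 0.57 without mutant replicate 1 and -0.06 without mutant replicate 4). Of 11 mast cell and basophil genes 7 were positive and 4 negative. The positive members include eosinophil genes such as Epx (log2 difference 1.03) and Ear2 (0.98), which are also in the eosinophil list below. The defining markers Cpa3 (-0.49) and Ms4a2 (-0.30) were negative. Of 21 megakaryocyte and platelet genes 13 were positive, and of 29 stem cell genes 20. Plasma cell genes were positive in 1 of 7 and stromal and endothelial genes in 3 of 6. Among defining markers, Elane and Pf4 were listed at 0 in mutant replicate 3 C1qa in wild-type replicate 2, and Procr in wild-type replicates 1 and 2. The part of these transcripts in the differences above was not tested.

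The genes that passed the test in the earlier populations were then followed into CLP. In MPP4, 15 genes (0.14%) passed, 4 higher and 11 lower in mutant. In CLP 0 of the 15 passed and 3 were at an unadjusted p of 0.05, against 4.64% of all genes tested. The 3 were Myo7a, Drc7 and Camkv, all lower in mutant, against 2.33% of all genes. The difference in CLP had the sign of that in MPP4 for 11 of the 15. The median absolute log2 difference of the 15 was 0.176 in CLP, against 0.977 in MPP4, the contrast that chose them. Cox6a2, a cytochrome oxidase subunit of muscle and plasmacytoid dendritic cells, averaged 10.2 ± 4.02 RPKM in mutant and 33.8 ± 9.08 RPKM in wild-type MPP4. In CLP it averaged 273 ± 36.8 RPKM in mutant and 273 ± 45.0 RPKM in wild type, with a log2 difference of 0.00 (95% interval -0.46 to 0.46). Cnn3, an actin-binding calponin, averaged 272 ± 15.9 RPKM in mutant and 271 ± 16.99 RPKM in wild-type CLP, and it fell by 1.23 on the log2 scale in mutant MPP4. Irf8, which directs the development of dendritic cells and monocytes, averaged 178 ± 14.3 RPKM in mutant and 178 ± 38.7 RPKM in wild-type CLP (log2 difference 0.03), and fell by 0.79 in mutant MPP4.

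Blnk, an adaptor of B-cell receptor signalling, stood at 169.8, 147, 151.5 and 109.5 RPKM in mutant CLP, against 173, 182.5 and 191 RPKM in wild-type CLP. Every mutant library lay below the wild-type range, with a log2 difference of -0.35 (95% interval -0.78 to 0.08; limma adjusted p = 0.996). Hlf, a transcription factor of stem cells, rose in mutant MPP4 by 0.98 on the log2 scale. In CLP it was scarce, at 1.75 ± 0.924 RPKM in mutant and 1.62 ± 0.230 RPKM in wild type. A difference at such a level is compressed on the log2(RPKM + 1) scale. When the effect in CLP was tested against the effect in MPP4, 0 of 10724 genes (0%) passed, with 402 at an unadjusted p of 0.05. Among the 15, Cox6a2 had a difference of effects of 1.67 (limma adjusted p = 0.0992) and Cnn3 of 1.24 (limma adjusted p = 0.0992). A smaller effect in CLP was therefore not shown for these genes singly.

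**Figure D4:**
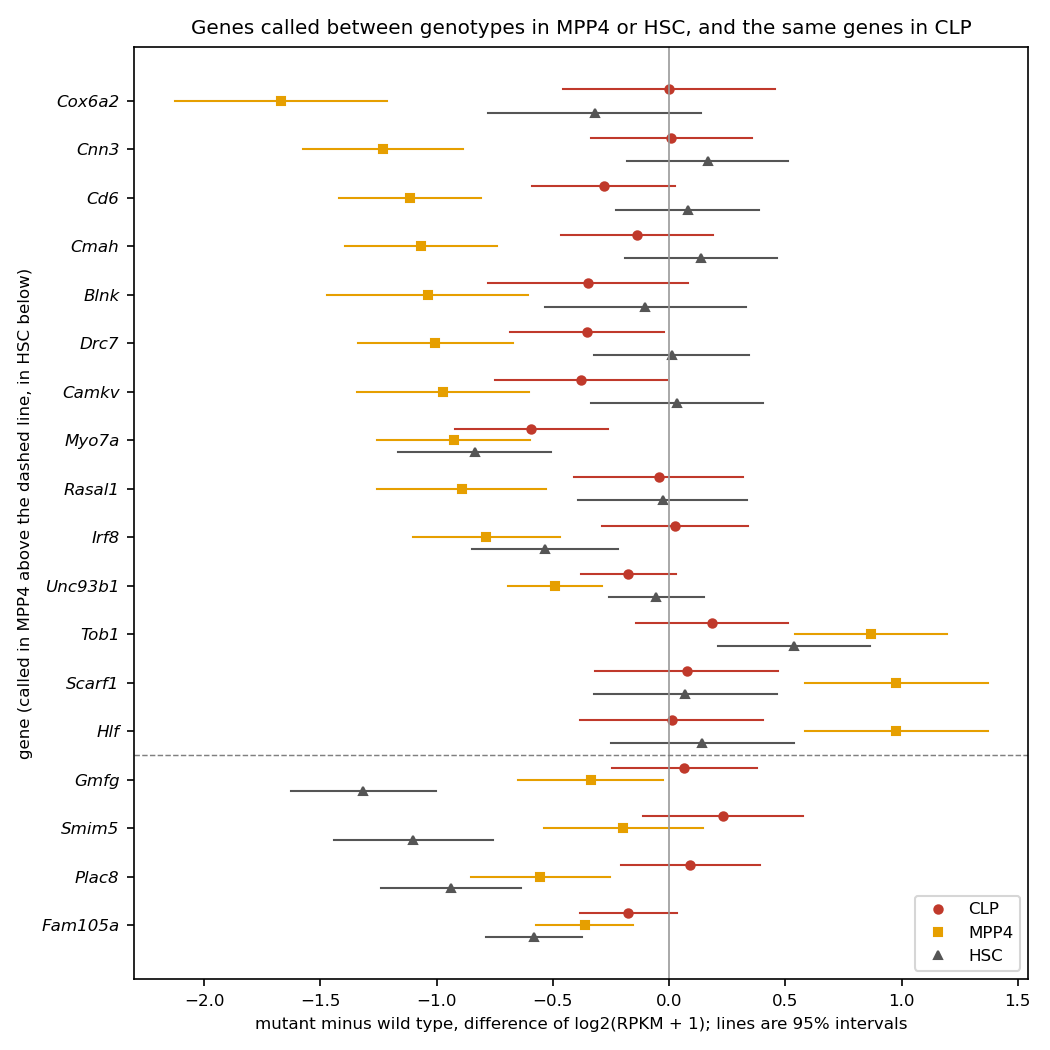
Mutant minus wild-type difference of log2(RPKM + 1) with its 95% interval in CLP (circles), MPP4 (squares) and HSC (triangles) for 14 of the 15 genes called in MPP4 and the 4 called in HSC. The CLP intervals include 0 for all but Myo7a, Drc7 and Camkv, and 0 of the 18 genes plotted passed the adjusted test in CLP.

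Gmfg was the 1 gene whose mutant effect in CLP differed from that in HSC (0.00932% of genes tested). It encodes glia maturation factor gamma, which remodels branched actin in blood cells. Gmfg (chromosome 7, 28437469 to 28448230) stood at 124.6, 143, 157 and 133 RPKM in mutant CLP, against 143, 112 and 146 RPKM in wild-type CLP. The CLP groups overlapped, with a log2 difference of 0.07 (95% interval -0.24 to 0.38). In HSC it stood at 30.5, 29.3, 32.1 and 43.7 RPKM in mutant, against 80.3, 70.3 and 108 RPKM in wild type. It fell by 1.32 on the log2 scale in mutant HSC (limma adjusted p = 3.18e-04), and every mutant HSC library lay below the wild-type ones. The difference of effects, CLP minus HSC, was 1.38 (95% interval 0.94 to 1.82; limma adjusted p = 0.026), with 387 genes at an unadjusted p of 0.05. This call was lost when mutant replicate 3, mutant replicate 4, wild-type replicate 1 or wild-type replicate 2 of CLP was left out (adjusted p 0.0589 to 0.156), and the difference then stayed between 1.26 and 1.44. In MPP4, Gmfg averaged 118 ± 12.96 RPKM in mutant and 149 ± 17.8 RPKM in wild type.

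The promoter window of Gmfg is shown for comparison with that of Mfge8, as the 1 gene with a called difference. It lies at chr7:28437219-28437518 on the plus strand of GRCm38.p6, from RefSeq, and capitals mark GGAA.
Gmfg: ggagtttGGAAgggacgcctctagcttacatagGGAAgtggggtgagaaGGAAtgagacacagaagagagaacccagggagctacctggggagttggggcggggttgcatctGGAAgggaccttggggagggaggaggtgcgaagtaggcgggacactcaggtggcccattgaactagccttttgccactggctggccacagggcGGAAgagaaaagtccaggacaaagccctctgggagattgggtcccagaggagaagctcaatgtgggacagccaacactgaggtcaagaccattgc
The window holds 5 GGAA, 0 TTCC and 0 CCGGAAGT.

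**Figure D5:**
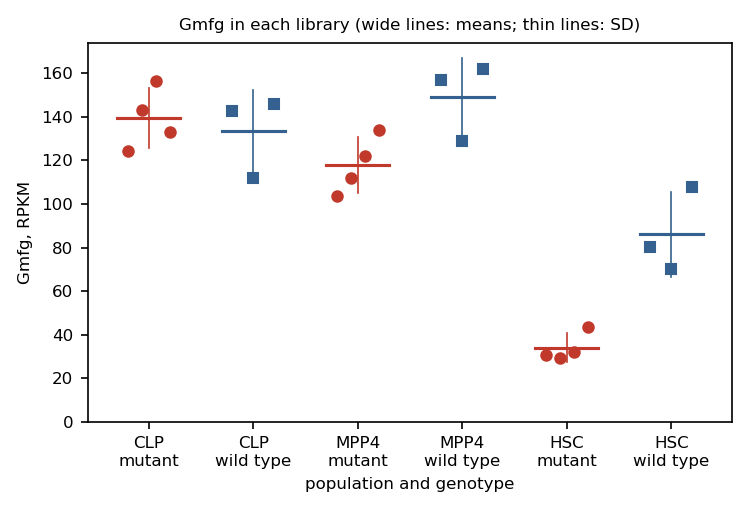
Gmfg in RPKM in each library of CLP, MPP4 and HSC, mutant (circles, n = 4) left of wild type (squares, n = 3), with wide lines at the means and thin lines for the SD. The CLP genotypes overlap, while all 4 mutant HSC libraries lie below the 3 wild-type HSC libraries.

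In HSC, 4 genes (0.0373%) passed, all lower in mutant, and Gmfg is 1 of them. In CLP 0 of the 4 passed, and the values of the others follow. Plac8, a cysteine-rich protein of blood cells, averaged 1136 ± 143.5 RPKM in mutant and 1064 ± 121 RPKM in wild-type CLP, and fell by 0.94 on the log2 scale in mutant HSC. Smim5, a small membrane protein, averaged 49.7 ± 9.09 RPKM in mutant and 42.3 ± 9.12 RPKM in wild-type CLP, and fell by 1.10 in mutant HSC (difference of effects 1.33, limma adjusted p = 0.0749). Fam105a averaged 29.6 ± 2.37 RPKM in mutant and 33.6 ± 4.29 RPKM in wild-type CLP. Over the 4 genes the median absolute log2 difference was 0.133 in CLP, against 1.018 in HSC, the contrast that chose them.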

How the data were processed

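Sorted cells were lysed, cDNA was made from all purified RNA with a SMART-seq kit, and libraries were built with NexteraXT, per the labels' protocols. The authors deposited RPKM in 1 table of 11628 genes. Reads were aligned with STAR to mm10, per the submitters' processing notes; versions, the counting tool, strand setting and scaling were not given in the sources used here. These values shift with the reads that a few abundant genes take, and overlapping genes cannot be told apart.

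Symbols turned into dates (16) were restored through Entrez identifiers, 11619 of which matched RefSeq. Values were taken as log2(RPKM + 1), with a pseudocount of 1, which understates differences of low genes; 904 genes were removed by the filter. The 6 group means of all 21 libraries were fitted, allowing the variance to follow the mean level, in limma 3.58.1 under R 4.3.3, with 15 residual and 4.58 prior degrees of freedom. Libraries were taken as independent, with no term for the mouse. Ages and sexes match by replicate number across populations, apart from the age of mutant replicate 4. So 1 mouse may have given libraries of several populations, and the tests, including those of differences of effects, do not allow for that. The replicate block among the alternatives was set within each population. Tests were two-sided, adjusted by Benjamini-Hochberg over 10724 genes and called at 0.05. Exact permutation used SciPy 1.17.1. The fit was run on simulated data with known changes as a check of its working, and its power to find a true change is not given here. Depth is unknown, and 4 and 3 libraries limit the precision.

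Members, lists and tests were chosen with earlier results of these data known, so lists got no test and are given as counts and medians. Named genes are called genes, the 10 smallest p in each direction, Etv6 and gate genes, up to 2 members per list and direction, genes called in MPP4 or HSC, the 10 smallest p of each difference of effects, and marker genes; 1 gene called in MPP4 is not reported here; the genes called without 1 library were added after their values were seen. Alternatives were pseudocounts of 0.5 and 0.1, other filters, median-ratio and quantile scaling, library weights, sex and age as covariates, the replicate block, the CLP libraries alone, each CLP library left out, and both libraries of male mice left out.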

Additional observations from a re-analysis of the deposited data

Results flagged for a closer look

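In groups of 4 mutant CLP libraries, 1 library stood apart from the others in 6 of 85 values examined. That count is not set against chance, because some genes were examined for passing without mutant replicate 2. App was 4.02 RPKM in mutant replicate 4, against 1.36 to 1.57 RPKM in the others. Hs3st1 was 17.2 RPKM in mutant replicate 3, against 10.8 to 11.6 RPKM in the others. Mutant replicate 2 stood apart in Gimap4 (11.6 RPKM), Pde2a (39.9 RPKM) and Sulf2 (5.11 RPKM), where the others lay at 1.23 to 2.31, 8.21 to 12.3 and 0.876 to 1.58 RPKM. Gimap4, Pde2a and Sulf2 were examined because they passed without that library, so its standing apart in them follows from how they were taken. The mean log2 level of the dendritic cell and MHC class II list was 5.08 in mutant replicate 4 and 4.73 to 4.74 in the others, while wild-type CLP spanned 4.51 to 5.01. The effect on Gmfg differed between CLP and HSC by 1.38 on the log2 scale by a test of that difference (limma adjusted p = 0.026).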

How the results depend on the processing

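The count of called genes in CLP was 0 with all libraries and stayed at 0 under 18 of 20 alternatives; leaving out single CLP libraries gave 0 to 7. With the replicate block it was 1 (Padi4, -0.83, limma adjusted p = 0.0374). For CLP minus MPP4 the count of 0 became 1 with the replicate block, and 0 to 1 without single libraries: S1pr1 passed without mutant replicate 2 (-1.71) and Slc25a30 without mutant replicate 4 (-1.30). For CLP minus HSC the count of 1 became 0 with library weights, 0 without both CLP libraries of male mice, 2 with the replicate block (Gmfg and Smim5), and 0 to 2 without single libraries; the difference of effects of Gmfg ranged from 1.11 to 1.53 and its adjusted p from 0.00485 to 0.208. The cause was not tested. The pairing by number was checked on deviations from the group means. Those of same-numbered mutant and wild-type CLP libraries correlated at 0.03, 0.44 and 0.22 over genes. Differently numbered libraries correlated at -0.32 to 0.30. The 0.30 joined mutant replicate 4 and wild-type replicate 3, both from 10-week-old females, and the 0.44 joined the libraries of male mice. Not every library correlated best with its own number, and the numbers were not taken to pair the samples. Whether libraries share structure by number, age or sex was not tested.

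The log2 differences of the 20 genes with the smallest p changed sign under 0 of the alternatives, and 3 of them (Mfge8, Pik3r6 and Lax1) passed the threshold, each without mutant replicate 2. The Etv6 difference ranged from -0.15 to -0.005. Of 27 list medians, 11 kept their sign under every alternative; the B-lineage median ranged from -0.52 to -0.22 and the proliferation median from 0.08 to 0.24. The neutrophil median ranged from -0.11 to 0.54, the erythroid from -0.06 to 0.57 and the interferon-stimulated from -0.19 to -0.03. Depth is unknown, so genes near 1 RPKM, such as Hlf in CLP, carry little precision.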

Other observations

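Genes of MHC class I and of peptide loading, a list written after their values were seen, had lower values in mutant CLP in 21 of 23 members (median log2 difference -0.23). Of these 0 passed limma's adjusted test, 11 were lower at an unadjusted p of 0.05 and 9 had groups that did not overlap, against 2.33% and 2.28% of all genes. H2-K1, a classical heavy chain, stood at 301, 347, 342.5 and 323 RPKM in mutant CLP, against 385, 430 and 353 RPKM in wild-type CLP. Nlrc5, the transactivator of class I genes, stood at 19.1, 17.7, 15.6 and 18.5 RPKM in mutant CLP, against 22.5, 25.8 and 20.9 RPKM in wild-type CLP. H2-Q7, a nonclassical heavy chain, stood at 110.9, 125.5, 107 and 136 RPKM in mutant CLP, against 187.5, 178 and 146.5 RPKM in wild-type CLP. Near-identical H2-Q genes may share reads, so single members are uncertain. The list's median was -0.11 in MPP4 and -0.14 in HSC, and ranged from -0.30 to -0.19 over the alternatives.

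All 8 genes of the GIMAP family, GTPases of lymphocytes, had lower values in mutant CLP, with a median log2 difference of -0.67. Of the 8, 0 passed limma's adjusted test and 6 were lower at an unadjusted p of 0.05, against 2.33% of all genes. Gimap6 stood at 128, 194.5, 154 and 132 RPKM in mutant CLP, against 224, 206 and 210.5 RPKM in wild-type CLP. Gimap8 stood at 4.72, 10.2, 2.87 and 4.07 RPKM in mutant CLP, against 7.32, 10.6 and 11.2 RPKM in wild-type CLP. In both, mutant replicate 2 was the highest mutant library. The family's median was -0.50 in MPP4 and -0.32 in HSC. This list too was written after values were seen.

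The guanylate-binding and eosinophil lists were likewise written after values were seen. Guanylate-binding proteins, interferon-induced GTPases, had negative differences in 9 of 10 members (median -0.82, -0.41 without wild-type replicate 1 and -1.57 without wild-type replicate 2). Of the 10, 0 passed limma's adjusted test and 4 were lower at an unadjusted p of 0.05, against 2.33% of all genes. The median of these genes was -1.035 in MPP4 and -0.13 in HSC. Their mean log2 level was 3.56, 3.02, 3.74 and 3.64 in mutant CLP, against 4.71, 3.33 and 4.69 in wild-type CLP, so wild-type replicates 1 and 3 were high. Wild-type replicates 1 and 3 of MPP4 were also high in Gbp4, at 13.8, 1.14 and 11.05 RPKM in wild-type MPP4. Same-numbered libraries may come from 1 mouse, so the MPP4 median may not be independent of that in CLP. Of 6 eosinophil genes tested, all had positive differences (median 0.68, 2.23 without mutant replicate 1 and -0.11 without mutant replicate 4), and 0 passed the test or reached an unadjusted p of 0.05. Over the 7 listed genes in the table, the summed level was 1.64, 1004, 256 and 1054 RPKM in mutant CLP, against 42.2, 228 and 220.5 RPKM in wild-type CLP. The eosinophil median was 2.55 in MPP4 and 0.21 in HSC. Members such as Epx and Ear2 are also in the mast cell and basophil list, so these lists are not separate.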
